A study of Mus musculus with 13 samples.

Results

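The gastrocnemius, a large calf muscle, was examined for 5 genes of zinc handling, *Mt1*, *Mt2*, *Mtf1*, *Slc39a14* and *Slc30a1*, out of 21868 genes in the expression table. The 5 genes were chosen by name with their normalized counts in these mice already known. Their differences between groups are therefore only described, and limma calls of these genes, given further below, are no support for the differences. RNA was sequenced from 13 male C57BL/6 mice that were 7 weeks old on arrival in the study, were made obese by 15 to 17 weeks on a diet with 60% of energy from fat, and were then moved to standard chow. Vehicle-treated mice (n = 5) received phosphate-buffered saline, semaglutide-treated mice (n = 5) received 30 nM/kg semaglutide, an agonist of the GLP-1 receptor, intraperitoneally each day, and semaglutide + ketone ester-treated mice (n = 3) received that dose and drank water that held ketone ester at 0.114 g/mL, all for 3 weeks. The labels give the strain as C57BL/6, and the study names C57BL/6N for its RNA-seq. The first 2 groups are labelled as also receiving a placebo. The vehicle-treated mice are numbered 1 to 5, the semaglutide-treated mice 13 to 17 and the semaglutide + ketone ester-treated mice 19, 21 and 22. No group received the ketone ester alone, and all samples share a single batch label.

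Metallothioneins are small cysteine-rich proteins that bind zinc and copper, and their genes are among the most readily induced in many tissues. The zinc-sensing transcription factor MTF1 binds metal response elements in their promoters when free zinc rises, and glucocorticoids and cytokines of the IL-6 family also induce them. Zinc enters the cytosol through ZIP proteins, encoded by *Slc39a* genes, and leaves it, to the outside or into vesicles, through ZnT proteins, encoded by *Slc30a* genes. In wasting skeletal muscle, raised metallothionein and *Slc39a14* transcripts have been described.

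The libraries held 15319471 to 23498162 gene reads each. Values are the authors' normalized counts, that is, reads divided by a factor for each library, and differences were taken after adding 1 and converting to log2, so that changes of genes with few reads are understated. The 8 muscle fibre markers were detected in every group, with a summed level of 1485210 to 3478700 normalized counts over the 13 mice. The library of semaglutide mouse 13 stood apart from its group. On the first principal component, which held 38.1% of the variance, it scored -9.12, while the other semaglutide-treated mice scored 31.8 to 52.5 and the vehicle-treated mice -24.5 to -12.8. Several results are therefore also given without this mouse. It was picked because it lay toward the vehicle-treated mice, so leaving it out favours larger differences of semaglutide from the other groups. Genes called for semaglutide against vehicle went from 3084 to 4447. Fits without it are a description and not an independent check.

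The windows upstream of *Mt1* and *Mt2* are shown because these genes lie side by side and had the same order of groups. In GENCODE's annotation of GRCm38, *Mt1* (ENSMUSG00000031765.8) occupies chr8:94179082-94180327 and *Mt2* (ENSMUSG00000031762.7) chr8:94172664-94173568, both on the plus strand, with 5513 bases between them. *Mt3* and *Mt4* complete the cluster on the *Mt2* side. RefSeq promoter windows of 300 bases, from 250 before to 50 after the annotated start, were present for 4 of the 5 genes on GRCm38.p6, and the first 280 bases are printed for 2 of them, plus strand, 5′ to 3′. Capitals mark matches to the core of the metal response element, searched as TGCACNC or TGCGCNC on both strands. A match on the minus strand therefore reads as its reverse complement.
Mt1, chr8:94178839-94179118: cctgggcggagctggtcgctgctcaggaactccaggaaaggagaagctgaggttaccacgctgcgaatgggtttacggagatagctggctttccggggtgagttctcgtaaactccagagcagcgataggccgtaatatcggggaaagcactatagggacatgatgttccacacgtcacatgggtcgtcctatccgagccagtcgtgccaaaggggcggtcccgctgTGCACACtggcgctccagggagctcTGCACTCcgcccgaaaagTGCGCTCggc
Mt2, chr8:94172368-94172647: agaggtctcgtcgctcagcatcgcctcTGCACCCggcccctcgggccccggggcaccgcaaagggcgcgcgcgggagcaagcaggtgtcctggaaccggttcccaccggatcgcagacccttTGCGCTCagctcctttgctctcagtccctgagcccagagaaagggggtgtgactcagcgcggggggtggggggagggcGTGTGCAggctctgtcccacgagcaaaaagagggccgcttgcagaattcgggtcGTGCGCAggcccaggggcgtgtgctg
The *Mt1* window held 3 matches, which began 23 bases before the RefSeq start and at bases 3 and 21 after it, all on the plus strand. The *Mt2* window held 4, beginning 223 and 128 bases before the start on the plus strand and, on the minus strand, 50 bases before it and at base 5 after it.

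Of 32851 RefSeq windows of this length, 25.7% held at least 1 match, 6.14% at least 2, 1.31% at least 3 and 0.295% at least 4. The *Slc30a1* window held 2 matches, both on the minus strand, and the *Mtf1* window held 0. With TGCGCNC alone there was 1 match for *Mt1*, 2 for *Mt2*, 1 for *Slc30a1* and 0 for *Mtf1*. The printed windows end before the whole first exon is reached. In the principal GENCODE transcripts, the first exon of *Mt1* (chr8:94179082-94179338, 257 bases) held 4 matches, 2 of which lie in the RefSeq window. That of *Mt2* (chr8:94172664-94172875, 212 bases) held 3, all beyond the end of its RefSeq window at chr8:94172667. The RefSeq start of *Mt2*, from which its positions above are counted, is chr8:94172618, before that exon. The printed *Mt2* stretch therefore holds no base of it. Such a match describes the letters and is not a measured binding site.

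*Mt1* and *Mt2* had the highest mean over the 13 mice of the zinc genes per transcript length, though not in every group for *Mt2*, and both were highest in semaglutide-treated mice. In vehicle-treated mice 1 to 5, *Mt1* was at 441, 414, 218, 277 and 456 normalized counts. In semaglutide-treated mice 13 to 17 it was at 689, 1242, 1016, 1949 and 835. In semaglutide + ketone ester-treated mice 19, 21 and 22 it was at 250, 145 and 204. Every semaglutide-treated mouse was thus above every other mouse, including mouse 13, which was the lowest of its group, while the lowest vehicle-treated mouse lay within the range of the semaglutide + ketone ester group. The *Mt1* mean was 361 ± 107 (SD, n = 5) with vehicle, 1146 ± 494 (n = 5) with semaglutide and 199.8 ± 52.8 (n = 3) with semaglutide + ketone ester. Semaglutide and vehicle differed by 1.62 ± 0.29 (SE) on the log2 scale, a 3.08-fold higher level. Semaglutide + ketone ester and semaglutide differed by -2.45 ± 0.34, a 5.47-fold lower level. These comparisons share the semaglutide-treated mice, and without mouse 13 the differences were 1.78 and -2.61. In bulk muscle, fewer cells of a type and less RNA per cell cannot be told apart.

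*Mt2* had the same order of groups at a lower count. It was at 363, 379, 129, 157 and 325 normalized counts in vehicle-treated mice 1 to 5. The semaglutide-treated mice 13 to 17 had 682, 929, 601, 1367 and 577. The semaglutide + ketone ester-treated mice 19, 21 and 22 had 174, 64.0 and 75.7. All semaglutide-treated mice were again above all other mice, and mouse 16 was the highest of the 13 for both genes. Vehicle and semaglutide + ketone ester overlapped, because mouse 19 lay above vehicle-treated mice 3 and 4. The means were 271 ± 119 (SD, n = 5), 831 ± 330 (n = 5) and 104 ± 60.2 (n = 3). On the log2 scale the difference was 1.67 ± 0.38 (SE) for semaglutide against vehicle, or 3.18-fold, and -3.04 ± 0.44 for semaglutide + ketone ester against semaglutide, or 8.24-fold lower. Without mouse 13 these were 1.72 and -3.09. The lowest value, in mouse 21, rested on 53 reads. Of the 59-base windows of *Mt2* transcripts, 40.0% also occur on the opposite strand in the antisense gene Gm45774, and whether reads were counted by strand is not given in the sources used here. *Mt1* transcripts shared no such window with another gene, *Mt2* included, so that the 2 genes' reads could be told apart.

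**Figure D1:**
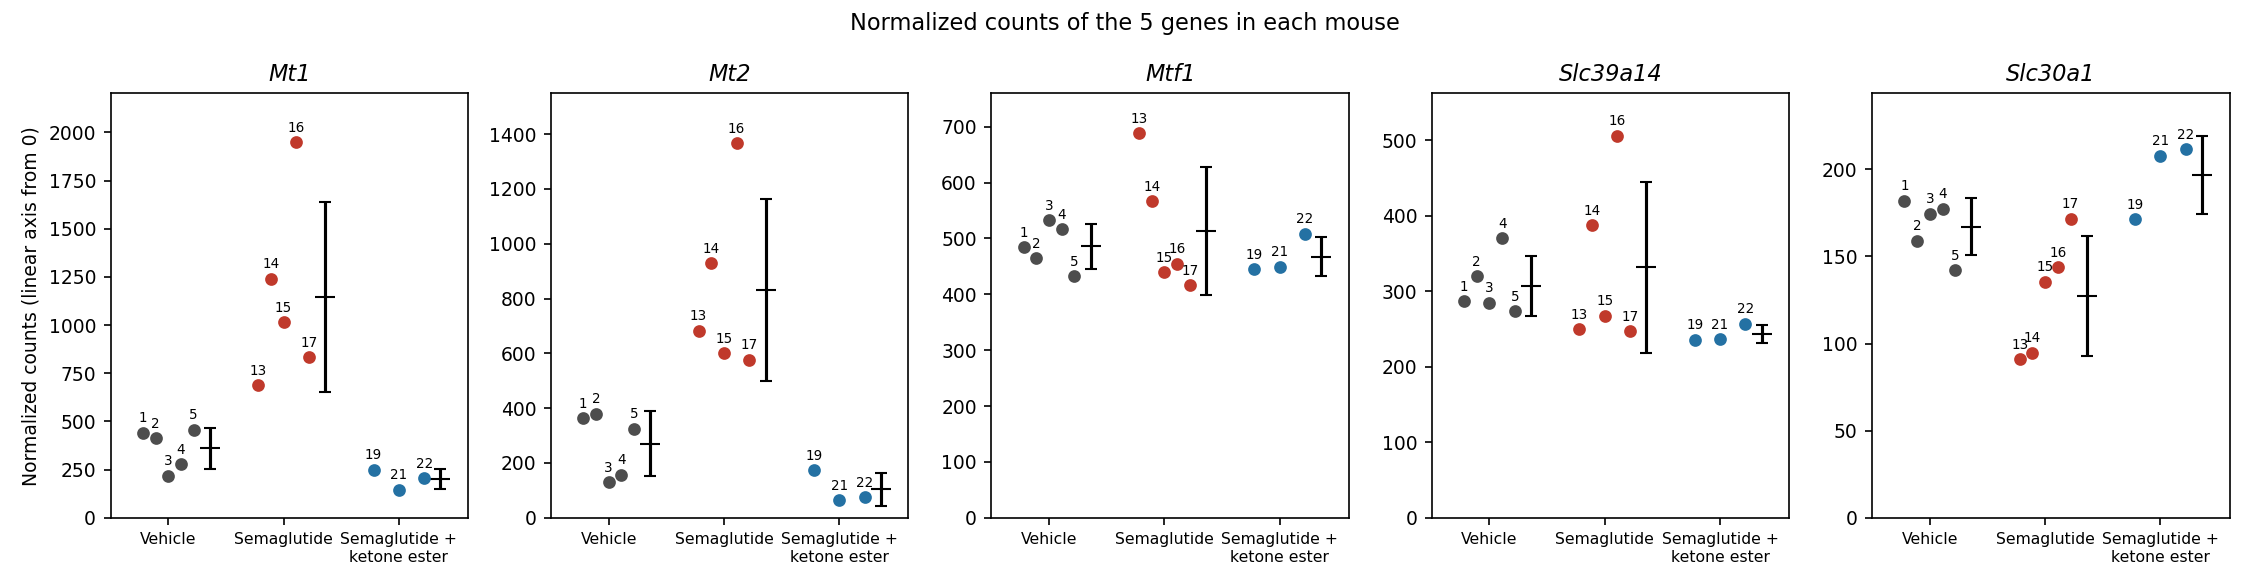
Normalized counts (linear axis from 0) of the 5 genes in each mouse, 1 panel per gene, with each point labelled by mouse number and the bar giving the group mean ± SD. All 5 semaglutide-treated mice lie above all other mice for *Mt1* and *Mt2*, whereas the groups overlap for *Mtf1*.

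Summed over both genes, the level was 632 ± 223 normalized counts (SD, n = 5) with vehicle, 1977 ± 814 (n = 5) with semaglutide and 304 ± 109 (n = 3) with semaglutide + ketone ester. *Mt1* exceeded *Mt2* in every mouse. The ratio of *Mt1* to *Mt2* counts was 1.43 ± 0.29 with vehicle and 1.38 ± 0.25 with semaglutide, with ranges of 1.09 to 1.76 and 1.01 to 1.69. With semaglutide + ketone ester it was 1.44 in mouse 19, 2.26 in mouse 21 and 2.70 in mouse 22. Mice 21 and 22, which had the lowest *Mt2* counts of all 13, thus had the highest ratios. Per kilobase of transcript, *Mt1* was at 658 ± 195 and *Mt2* at 530 ± 232 normalized counts in vehicle-treated mice. These spreads are between mice, while both genes come from the same mice, so they do not bear on the order of the 2 genes within a mouse.

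**Figure D2:**
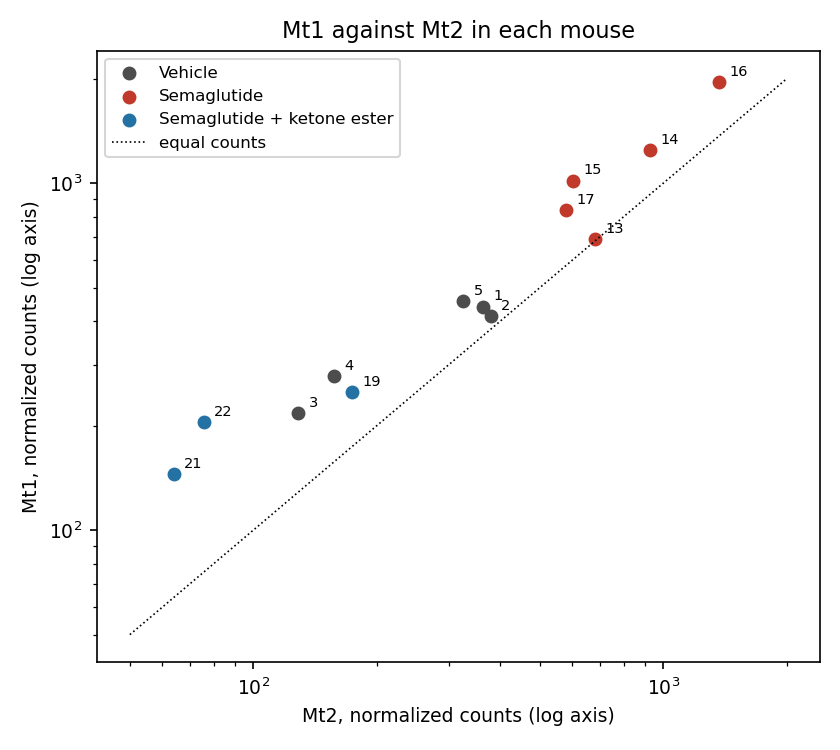
Normalized counts of *Mt1* (vertical) against *Mt2* (horizontal) in each of 13 mice, on log axes, with points labelled by mouse number and a dotted line at equal counts. The semaglutide-treated mice take the upper right, above 577 for *Mt2*, and mice 21 and 22 lie farthest from the line, with ratios of 2.26 and 2.70.

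*Mtf1*, which encodes the zinc-sensing factor itself (ENSMUSG00000028890.13, chr4:124802104-124849800, plus strand), had overlapping groups. Its normalized counts were 484, 465, 532, 517 and 432 with vehicle. With semaglutide they were 689, 567, 440, 454 and 416 in mice 13 to 17. With semaglutide + ketone ester they were 445, 449 and 508. Mouse 13 had the highest *Mtf1* and, among semaglutide-treated mice, the lowest *Mt1*. The log2 difference was 0.06 ± 0.13 (SE) for semaglutide against vehicle, with a 95% interval of -0.23 to 0.34, and -0.06 without mouse 13. Semaglutide + ketone ester differed from semaglutide by -0.11 ± 0.15 and from vehicle by -0.05 ± 0.15. The antisense gene 1110065P20Rik, at 118 to 219 normalized counts, holds 7.45% of the 59-base windows of *Mtf1* transcripts on the opposite strand.

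*Slc39a14* encodes ZIP14, an importer of zinc, manganese and non-transferrin-bound iron (ENSMUSG00000022094.15, chr14:70303469-70351425, minus strand). Its normalized counts were 287, 320, 285, 370 and 274 in vehicle-treated mice 1 to 5. Semaglutide-treated mice 13 to 17 had 249.5, 388, 268, 506 and 247. Semaglutide + ketone ester-treated mice had 236, 237 and 257. Mice 14 and 16 were the highest of all 13, and the other 3 semaglutide-treated mice lay below every vehicle-treated mouse. The log2 difference was accordingly small and of wide error, 0.06 ± 0.19 (SE), with a 95% interval of -0.35 to 0.46. It was 0.14 without mouse 13 and ranged from -0.11 to 0.15 over the 13 fits without 1 mouse, so that its sign rested on single mice, being negative without mouse 14 (-0.014) or mouse 16 (-0.11). All 3 semaglutide + ketone ester-treated mice were below all vehicle-treated mice, with a log2 difference of -0.33 ± 0.21, and they were -0.39 ± 0.21 from semaglutide-treated mice (-0.47 without mouse 13).

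*Slc30a1* encodes ZnT1, the zinc exporter of the plasma membrane (ENSMUSG00000037434.7, chr1:191906767-191913247, plus strand), and its lowest group mean was that of semaglutide-treated mice. Normalized counts were 182, 159, 174, 177 and 142 with vehicle. They were 90.9, 94.7, 136, 144 and 172 in semaglutide-treated mice 13 to 17. With semaglutide + ketone ester they were 171, 208 and 212. Mice 13 and 14 were the 2 lowest, while mice 16 and 17 lay within the vehicle range and mouse 17 just above mouse 19, so that the groups overlapped. The log2 difference was -0.43 ± 0.17 (SE) for semaglutide against vehicle, 0.66 ± 0.19 for semaglutide + ketone ester against semaglutide and 0.24 ± 0.19 for semaglutide + ketone ester against vehicle. Without mouse 13 these were -0.32, 0.55 and 0.24. The window overlap with the antisense gene 1700034H15Rik, not analysed here, was 7.84%.

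Counts over the 5 genes, which passed the filter of a mean of at least 10 normalized counts, only describe the choice of genes. For semaglutide against vehicle, 2 of 5 (*Mt1* and *Mt2*) had an adjusted p under 0.05 in limma, against 25.1% of the 12303 genes tested, and 2 of 5 had groups that did not overlap, against 14.7%. Between semaglutide + ketone ester and semaglutide, 3 of 5 (*Mt1*, *Mt2* and *Slc30a1*) did, against 18.4%, and 2 of 5 did not overlap, against 20.1%. The *Slc30a1* call was lost without semaglutide mouse 14 or semaglutide + ketone ester mouse 21 or 22, and without semaglutide mouse 17 the gene was also called against vehicle. Limma called 0 of 5 for semaglutide + ketone ester against vehicle, against 0.236%. There, 2 (*Mt1* and *Mt2*) had an unadjusted p under 0.05, and edgeR and DESeq2 each called 0. Only *Slc39a14* did not overlap, against 11.3%. The log2 differences of *Mt1* and *Mt2* in that comparison were -0.83 ± 0.34 (SE) and -1.37 ± 0.44. The criterion of the study's methods, an unadjusted analysis of variance over the 3 groups with a ratio of at least 1.5 between group means, took in the same 3 of 5 genes, against 16.1%. *Slc30a1* was just inside it, with a ratio of 1.55 between its highest and lowest means, and *Slc39a14*, the nearest of the 5 outside it by ratio, had 1.36 and did not meet the condition on the analysis of variance either.

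The remaining ZIP, ZnT and metallothionein genes numbered 24 in the table, taken by symbol as complete families, and 17 passed the filter. For semaglutide against vehicle, 5 of 17 (29.4%) had an adjusted p under 0.05 in limma, 1 higher and 4 lower, with a median log2 difference of 0.07, beside -0.0029 over all genes tested. That share is near the 25.1% of all genes. Between semaglutide + ketone ester and semaglutide, 4 of 17 (23.5%) did, 3 higher and 1 lower, with a median of -0.08, beside 18.4% and -0.00024 over all genes. Without mouse 13, 5 (29.4%) were called in each of these comparisons, beside 36.1% and 32.1% of all genes in that fit. Limma called 0 of 17 for semaglutide + ketone ester against vehicle, beside 0.236% of all genes, with 1 unadjusted p under 0.05 and 0 calls by edgeR and by DESeq2.

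*Slc30a2*, which encodes ZnT2, a transporter that loads zinc into vesicles, had the largest log2 difference of the 17 genes for semaglutide against vehicle, a fall. Its normalized counts were 501, 479, 444, 397 and 363 with vehicle. They were 211, 107, 74.4, 48.6 and 66.4 in semaglutide-treated mice 13 to 17. With semaglutide + ketone ester they were 330, 449 and 377. No semaglutide-treated mouse reached the lowest mouse of either other group, and mouse 13 was the highest of the semaglutide-treated mice. The log2 difference was -2.28 ± 0.31 (SE) for semaglutide against vehicle (limma, adjusted p = 0.00053). It was 2.10 ± 0.35 (adjusted p = 0.0033) between semaglutide + ketone ester and semaglutide, and between semaglutide + ketone ester and vehicle it was -0.18 ± 0.35, with a 95% interval of -0.95 to 0.59 (adjusted p = 0.93). Both calls held without each of the 13 mice in turn. Without mouse 13 the first 2 differences were -2.59 and 2.41. Semaglutide-treated mice were thus lowest for this gene and highest for *Mt1* and *Mt2*. Its RefSeq promoter window held 2 matches to the metal response core, where 6.14% of all windows held at least 2. They began 214 and 200 bases before the RefSeq start, on the minus strand. GENCODE begins the gene at chr4:134343181, before this window (chr4:134343216-134343515), so both lie inside the annotated gene. Their part in these values was not tested.

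*Slc39a7*, which encodes ZIP7, the importer that releases zinc from the endoplasmic reticulum, was the 1 gene of the 17 that limma called higher with semaglutide. In all, 9 of the 17 had a difference above 0, and *Slc39a13*, which encodes ZIP13 and is named after its values were seen, lay just past the threshold, with a log2 difference of 0.26 ± 0.09 (SE; limma, adjusted p = 0.0503). *Slc39a7* was at 798, 893, 887, 836 and 817 normalized counts with vehicle. Semaglutide-treated mice 13 to 17 had 1008, 1242, 1032, 1039 and 1006. Semaglutide + ketone ester-treated mice had 696, 696 and 774. The semaglutide-treated mice were above all others and the semaglutide + ketone ester-treated mice below all others. The log2 difference was 0.33 ± 0.08 (SE) for semaglutide against vehicle (limma, adjusted p = 0.012). Between semaglutide + ketone ester and semaglutide it was -0.56 ± 0.09 (adjusted p = 0.0029), and both calls held in all 13 fits without a mouse. Between semaglutide + ketone ester and vehicle it was -0.23 ± 0.09 (adjusted p = 0.40).

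**Figure D3:**
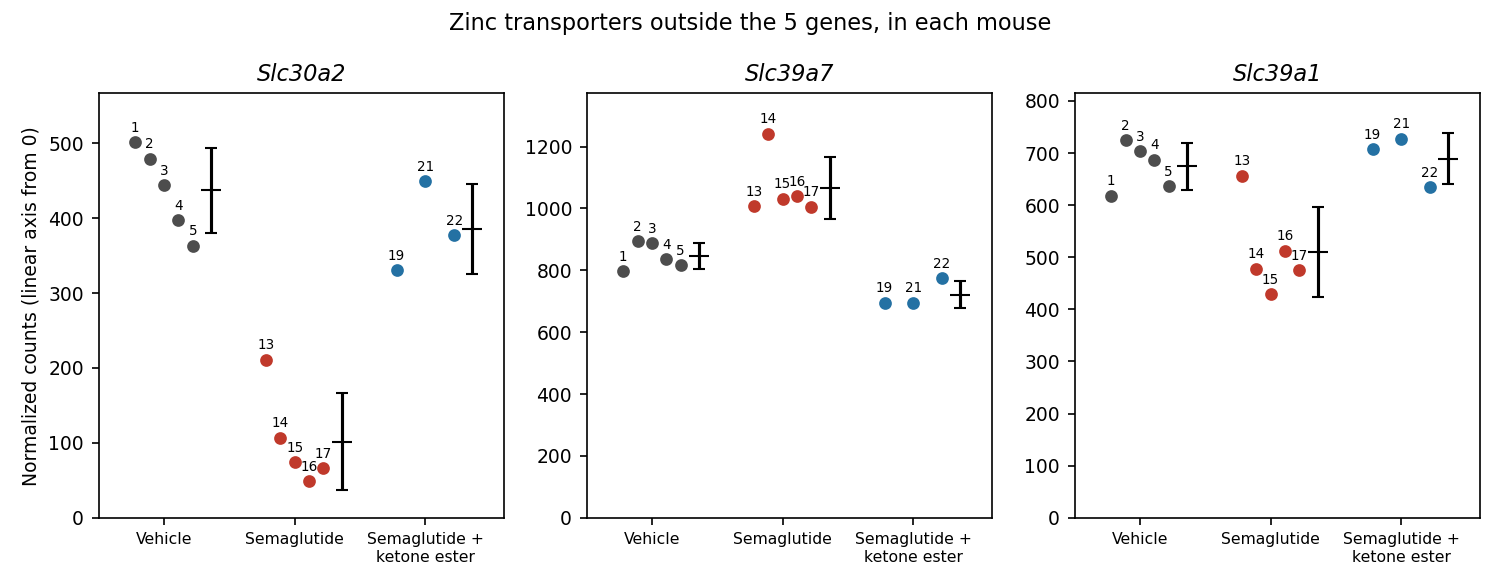
Normalized counts (linear axis from 0) of *Slc30a2*, *Slc39a7* and *Slc39a1* in each mouse, with each point labelled by mouse number and the bar giving the group mean ± SD. The semaglutide-treated mice lie lowest for *Slc30a2*, at 48.6 to 211, and highest for *Slc39a7*, at 1006 to 1242, whereas mouse 13 overlaps the other groups for *Slc39a1*.

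The other 3 genes that fell with semaglutide changed by less. *Slc39a1*, which encodes the plasma membrane importer ZIP1, had a log2 difference of -0.41 ± 0.11 (SE; limma, adjusted p = 0.017), from 674 ± 45.2 (SD, n = 5) to 510 ± 87.1 normalized counts (n = 5). Mouse 13, at 657, was the only semaglutide-treated mouse within the vehicle range of 618 to 725. *Slc30a9*, which encodes ZnT9, an exporter of zinc from mitochondria, was at 1493 to 1604 with vehicle and 949.7 to 1392 with semaglutide, without overlap, with a log2 difference of -0.43 ± 0.10 (adjusted p = 0.0082). *Slc39a11*, which encodes ZIP11, had -0.54 ± 0.17 (adjusted p = 0.039), but the call was lost in 6 of 13 fits without 1 mouse, mouse 13 among them (adjusted p = 0.057), and by edgeR (0.074) and DESeq2 (0.061). Those 6 mice were vehicle mice 1, 2 and 4 and semaglutide mice 13, 15 and 17, and the highest adjusted p in these fits was 0.090. Over the 9 alternative settings, edgeR and DESeq2 included, the *Slc39a11* call was lost in 6, with adjusted p up to 0.17.

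Against semaglutide, *Slc39a1* was higher with semaglutide + ketone ester by 0.45 ± 0.13 (SE; limma, adjusted p = 0.029) and *Slc30a9* by 0.36 ± 0.11 (adjusted p = 0.039). The *Slc39a1* call was lost without semaglutide mice 14, 15 or 17 or any 1 of the semaglutide + ketone ester-treated mice, with adjusted p up to 0.11. The *Slc30a9* call was lost without any 1 mouse other than semaglutide mice 13 and 14, with adjusted p up to 0.12. With the libraries rescaled to equal totals, which moves the median log2 difference of all genes to 0.17 and -0.24 in these comparisons, the *Slc39a1* calls were lost in both (adjusted p = 0.14 and 0.25) and the *Slc30a9* call in the second (adjusted p = 0.30).

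**Figure D4:**
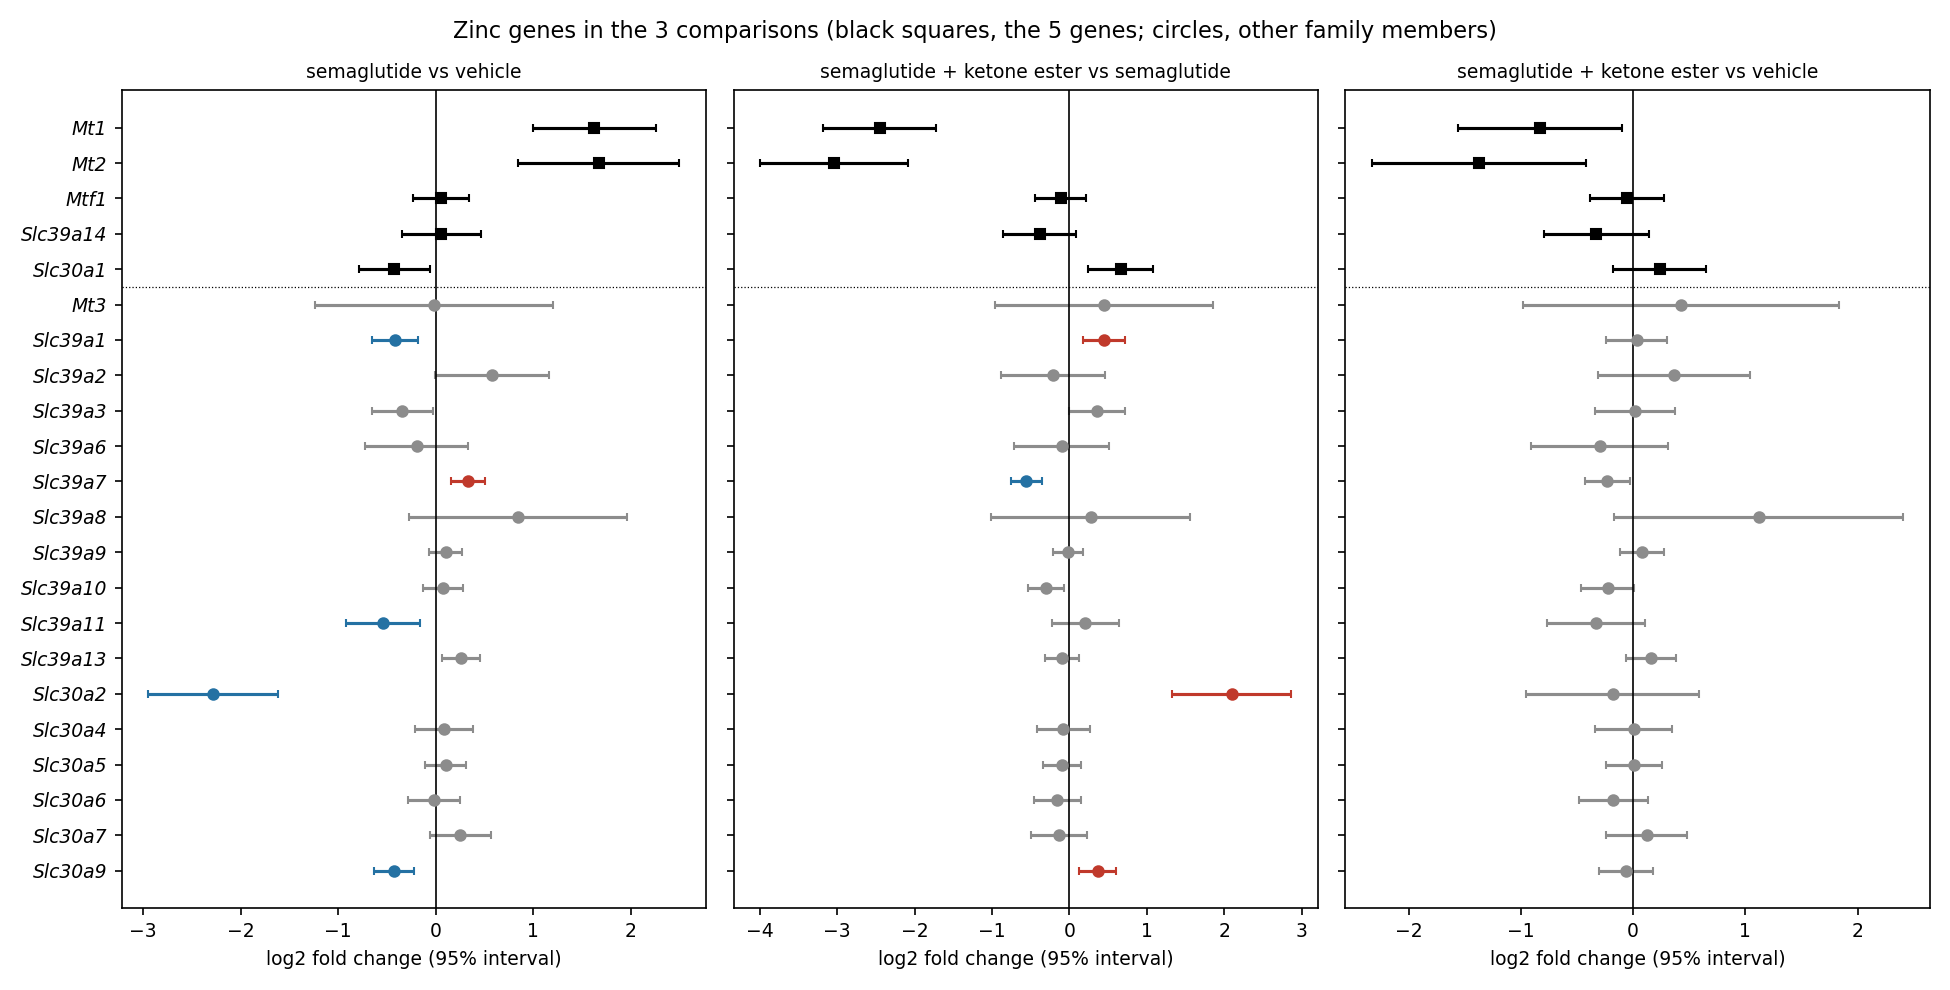
Log2 differences with 95% intervals (horizontal axis) of the 5 genes (black squares, above the dotted line) and the 17 other zinc genes tested (circles) in the 3 comparisons, 1 panel each with its own scale. Red and blue circles mark genes with an adjusted p under 0.05 in limma, higher and lower, and grey circles the rest. *Slc30a2* at -2.28 and 2.10 is the farthest circle from 0 in the first 2 panels, and the third panel holds 0 coloured circles.

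Ranked by mean normalized count per kilobase of the principal transcript over the 13 mice, *Mt1* (1140) and *Mt2* (876) came first, followed by *Slc39a7* (389), *Slc39a1* (260) and *Slc30a9* (243). *Mtf1* (64.5) was at place 10, *Slc39a14* (61.3) at 11 and *Slc30a1* (30.2) at 15. The ranges of *Mt1* and *Mt2* over mice overlapped within each group. So did those of *Mtf1* and *Slc39a14* with vehicle, at 63.7 ± 5.26 and 62.4 ± 7.99 per kilobase (SD, n = 5). The order depended on the group. With semaglutide + ketone ester, *Mt2* was at 204 ± 118 per kilobase (n = 3) and lay on average below *Slc39a7* (311 ± 19.4), *Slc39a1* (292 ± 20.6) and *Slc30a9* (259.9 ± 6.18). *Mt3*, the metallothionein best known from brain, had only 1.24 to 20.4 normalized counts, and *Mt4*, that of stratified epithelium, was at 0 in all mice, where 3 reads would be at most 1.96e-05% of a library (counting error only). *Slc30a3*, *Slc30a8* and *Slc39a5* were also at 0 in all mice.

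**Figure D5:**
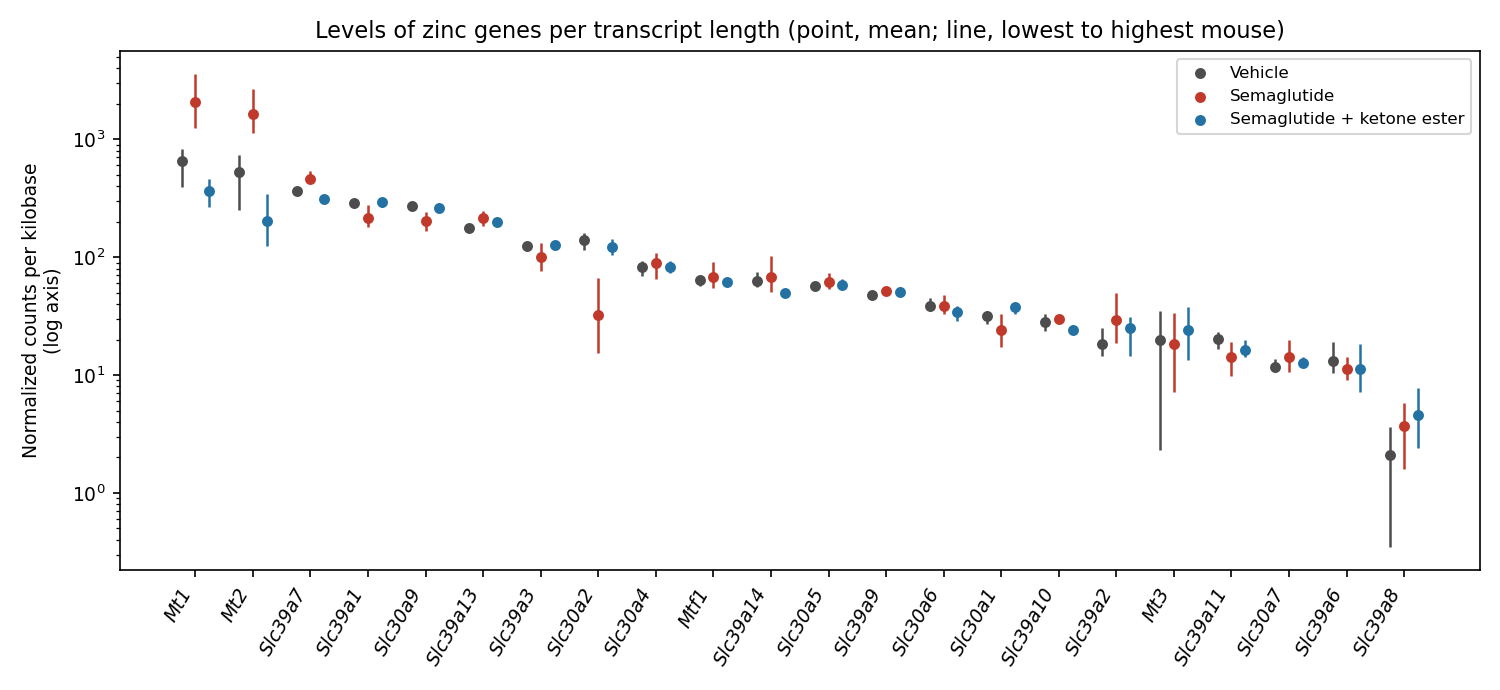
Normalized counts per kilobase of principal transcript (log axis) for the 22 zinc genes that passed the filter, ordered by their mean over 13 mice. Points are group means and lines run from the lowest to the highest mouse. *Mt1* and *Mt2* stand highest, at 2088 and 1627 with semaglutide, and *Slc30a2* is at 32.2 with semaglutide against 139 with vehicle.

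The genes most like each of the 5 over the 13 mice were taken by Pearson's r on the log2 scale among the 12302 other genes tested. These values describe mice that share treatment groups, and they carry no p. For *Mt1* they were *Mt2* (r = 0.97), 2900026A02Rik (0.96) and *Atoh8*, a transcription factor (0.95). For *Mt2* they were *Mt1* (0.97), *Ifrd1* (0.94) and *Tnfrsf12a*, the TWEAK receptor (0.94). With the group means removed, *Mt1* and *Mt2* still had r = 0.88, so that mice high for 1 gene within a group were also high for the other. *Mtf1* was nearest to *Zbtb7b* (0.93), *Sh2b1* (0.92) and *Srebf1* (0.90), and its r with *Mt1* was 0.03, and -0.43 with group means removed. By ranks (Spearman's rho) the first 3 were lower, at 0.76, 0.80 and 0.71, and *Srebf1* with semaglutide was at 2153 ± 2387 normalized counts (SD, n = 5). Mouse 13 had the highest *Mtf1*, and the correlations were not repeated without it. *Slc39a14* was nearest to *Slc25a5* (0.90), *Plpp2* (0.86) and *Cox8a* (0.84), with rho of 0.90, 0.76 and 0.69. *Slc30a1* was nearest to *Zfp612* (0.94), *Pars2* (0.93) and *Arl13b* (0.88), with rho of 0.85, 0.80 and 0.74. Between *Slc30a1* and *Mt2* r was -0.74 over all mice and -0.28 with group means removed.

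Lists of genes that belong to, or respond to, pathways known to induce metallothionein were read beside these values. They were chosen with earlier results of these data known, so their counts are a description. Of 8 genes of IL-6 and STAT3 signalling, 6 rose with semaglutide and 0 fell (median log2 difference 0.69), beside 11.9% of all genes tested that rose. The 6 were *Il6ra*, *Il6st*, *Osmr* and *Stat3*, which encode receptor subunits and the transcription factor itself, and *Cebpd* and *Pim1*. *Socs3* and *Junb*, at 0.006 ± 0.63 and 0.01 ± 0.15 (SE), were not called. *Cebpd*, a transcription factor of the acute-phase response, had the largest difference, 2.62 ± 0.55 (SE; limma, adjusted p = 0.0057). Its mean was 104 ± 30.2 normalized counts (SD, n = 5) with vehicle and 821 ± 529 (n = 5) with semaglutide. The lowest semaglutide-treated mouse, at 132, lay within the vehicle range of 56.9 to 137. Of the 8, 4 were lower with semaglutide + ketone ester than with semaglutide, beside 9.3% of all genes, and *Cebpd* differed by -3.30 ± 0.63 (adjusted p = 0.0056). Without mouse 13, 6 of the 8 rose and 6 were lower in these comparisons, where 17.3% of all genes rose and 16.2% were lower. Of 8 glucocorticoid-responsive genes, limma called 0 for semaglutide against vehicle, beside 25.1% of all genes. Of the 8, 3 had an unadjusted p under 0.05 and edgeR and DESeq2 each called 2, with a median of 0.52. With semaglutide + ketone ester against semaglutide, 5 of the 8 had an unadjusted p under 0.05, edgeR and DESeq2 each called 4, and 0 had a difference above 0. Limma called 2 as lower, beside 9.3% of all genes, both named after their values were seen. These were *Fkbp5* by -0.92 ± 0.28 and *Tsc22d3* by -0.50 ± 0.16 (adjusted p = 0.038 and 0.045). For semaglutide against vehicle, 7 of the 8 had a difference above 0, and *Tsc22d3* was not among them. Its difference there was -0.28 ± 0.14 (SE; limma, adjusted p = 0.16). Mean *Tsc22d3* was 4455 normalized counts with vehicle, 3651 with semaglutide and 2593 with semaglutide + ketone ester. When mouse 13 was left out, limma called 5 of these 8 as higher with semaglutide than with vehicle and 6 as lower with semaglutide + ketone ester than with semaglutide, beside the same 17.3% and 16.2%.

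Of 7 genes tested that respond to NRF2, the oxidative stress factor, 2 rose with semaglutide (median log2 difference 0.29), beside 11.9% of all genes, with *Gclc*, which encodes the catalytic subunit that limits glutathione synthesis, at 0.66 ± 0.11 (SE; limma, adjusted p = 0.0022). *Gclc* was lower with semaglutide + ketone ester than with semaglutide, by -0.68 ± 0.13 (adjusted p = 0.0060), as was 1 other gene of the 7, beside 9.3% of all genes. Without mouse 13, 4 of the 7 rose with semaglutide and 4 were lower with semaglutide + ketone ester than with semaglutide, beside 17.3% and 16.2% of all genes. Of 9 iron and manganese genes, 1 rose and 1 fell with semaglutide, the latter *Steap3*, an endosomal iron reductase, by -0.82 ± 0.19 (adjusted p = 0.0088), and without mouse 13 it was 1 and 2. Over all genes 11.9% rose and 13.2% fell, so that the iron and manganese counts were near the background. Of 8 copper genes, 2 rose and 1 fell, the latter *Commd1*, a factor of copper export, by -0.66 ± 0.14 (adjusted p = 0.0055). *Steap3* and *Commd1* were higher with semaglutide + ketone ester than with semaglutide, by 0.96 ± 0.22 and 0.80 ± 0.16 (adjusted p = 0.011 and 0.0063). In the comparison of semaglutide + ketone ester with vehicle, limma called 0 genes of these 5 lists, beside 0.236% of all genes. An unadjusted p under 0.05 was seen for 1 glucocorticoid-responsive and 1 NRF2-responsive gene, and edgeR and DESeq2 each called 1 gene, of the glucocorticoid list.

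Markers of cell types moved with some of these differences. For semaglutide against vehicle, 4 of 5 fibroblast markers and 3 of 8 muscle fibre markers were lower in limma, beside 13.2% of all genes. Of these lists, edgeR called 4 fibroblast and 1 muscle fibre marker and DESeq2 4 and 3. The summed fibroblast markers ranged over 5120 to 11723 normalized counts with vehicle, 4625 to 6371 with semaglutide and 6644 to 11019 with semaglutide + ketone ester, and the summed muscle fibre markers over 2401170 to 2867370, 1485210 to 2575100 and 2992690 to 3478700. The summed red cell markers ranged over 1356 to 2291, 50.5 to 3148 and 2849 to 5558. In limma 4 of 5 were higher with semaglutide + ketone ester than with semaglutide, beside 9.09% of all genes, with 1 in edgeR and 0 in DESeq2. When mouse 13 was left out, limma called 5 of 5 red cell markers as lower with semaglutide than with vehicle, beside 18.8% of all genes. It then also called 5 of 5 as higher with semaglutide + ketone ester than with semaglutide, beside 15.9%. For semaglutide against vehicle with all mice, limma called 0 (5 with an unadjusted p under 0.05, 0 called by edgeR and by DESeq2). For semaglutide + ketone ester against semaglutide, 3 of 5 fibroblast, 4 of 8 muscle fibre and 2 of 5 endothelial markers were higher in limma, beside 9.09% of all genes, with 3, 4 and 3 called by edgeR and 3, 5 and 3 by DESeq2. Limma called 0 slow fibre, adipocyte, macrophage, satellite cell and Schwann cell markers in each of the 3 comparisons, beside 25.1%, 18.4% and 0.236% of all genes. DESeq2 called 1 adipocyte marker for semaglutide against vehicle. The summed adipocyte markers ranged over 3344 to 7020 normalized counts with vehicle, 1763 to 19452 with semaglutide and 3753 to 4596 with semaglutide + ketone ester. No marker of the 9 lists was at 0 in a whole group. The part of these markers in the values of the zinc genes was not tested.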

How the data were processed

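RNA-seq of frozen gastrocnemius from 13 mice was analysed. Per the labels and the study's methods, the authors prepared stranded mRNA libraries, sequenced paired-end reads of 59 bases and aligned them to mm10 with DRAGEN. DESeq2 is also named in the submitters' processing notes, without a role. How reads were assigned to genes (program, annotation and strand setting) and how counts were normalized are not given in the sources used here. The deposited signal is a normalized count per gene and mouse. For 100% of values it was a whole multiple, within 0.02 reads, of the step of that mouse, so that whole reads could be recovered.

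From the deposited values, log2(normalized count + 1) was computed for 12303 of 21868 genes with a mean of at least 10, and all 3 groups were fitted in 1 model with limma 3.58.1 in R 4.3.3. Adjusted p is the Benjamini-Hochberg value over these 12303 genes, called when under 0.05. The script was tested on simulated data. Alternatives were other pseudocounts, scalings, filters and variance models, edgeR 4.0.16 and DESeq2 1.42.0 on the recovered reads, and leaving out each mouse. Nothing in the sources says more on replicates than that each sample is a mouse. Gene positions, lengths (longest principal transcript) and transcript sequences came from GENCODE M21, on GRCm38, the assembly that mm10 denotes, and promoters from RefSeq on GRCm38.p6.

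The 5 genes and all gene lists were chosen with earlier results of these data known. Named beside the 5 genes are other zinc genes with an adjusted p under 0.05 in any comparison, the 3 highest per kilobase, the 3 genes most like each of the 5, and, of the lists for iron and manganese, copper, glucocorticoid, IL-6 and NRF2, the called gene with the largest difference between semaglutide and vehicle. Other genes of those lists were named after their values were seen. Intervals cover the spread between mice, and depth floors of 3 reads cover counting error only.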

Additional observations from a re-analysis of the deposited data

How the results depend on the processing

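With 3 to 5 mice a group, a difference that missed the threshold was not shown to be absent. The direction of *Mt1*, *Mt2* and *Slc30a1* was the same under all 9 alternative settings and in all 13 fits without 1 mouse in each of the 3 comparisons. For semaglutide against vehicle, *Mt1* was at 1.56 to 1.80 and *Mt2* at 1.49 to 1.84 (log2) over the settings. These genes were chosen with their values known, so this describes the settings and is no support for the differences. The differences of *Mtf1* and *Slc39a14* between semaglutide and vehicle, which were not called, changed sign among settings, from -0.07 to 0.23 and from -0.08 to 0.23. *Slc30a1* lost its call against semaglutide without the filter on low values (adjusted p = 0.056) and with equal totals (0.13). Over all genes, 3084 were called for semaglutide against vehicle, 2262 for semaglutide + ketone ester against semaglutide and 29 for semaglutide + ketone ester against vehicle. With sample weights these were 4847, 4279 and 205. Equal totals gave 4198 for the second, with 77.8% of the calls higher in the first comparison and 14.6% in the second, beside 47.3% and 49.4%. For the third, no filter gave 4, the mean-variance trend 45, edgeR 45 and DESeq2 171. Leaving out 1 mouse gave 862 to 3954 for the second, the lowest without mouse 22 and the highest without mouse 13, and 1 to 77 for the third, the lowest without mouse 21 and the highest without mouse 13. Of the other 17 zinc genes, 4 were called for semaglutide + ketone ester against semaglutide, 2 without the filter and 2 to 5 without 1 mouse, with 2 when semaglutide mouse 15 or 17 or semaglutide + ketone ester mouse 19, 21 or 22 was left out. The cause of these shifts was not tested. No paired analysis was possible because the mouse numbers differ between the groups.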
